A study of Mus musculus with 6 samples.

Results

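The heterogeneous nuclear ribonucleoproteins (hnRNPs) and other RNA-binding regulators of alternative splicing (AS) were followed at the RNA level in whole testes of conditional *Srsf1* knockout mice and controls. The genes were taken by symbol from the deposited expression table, and 51 of its 54532 genes carried one of the chosen names. The genes were grouped by known function. The rule that selected them used no measured value, although the list was chosen with earlier results of these data known. The table came from 5 dpp (days postpartum) testes, 3 control (Ctrl) and 3 conditional knockout (cKO). In the cKO mice, Cre was expressed from the promoter of *Vasa* (*Ddx4*), which is active in germ cells, and deleted the floxed exons 2 to 4 of *Srsf1*. Per the study these mice were *Srsf1* Fl/del, so that beside the floxed allele they carried a deleted one (del), which an animal that inherits it carries in its somatic cells too. RNA of the whole organ was sequenced. The labels give the control genotype as Ctrl alone, and whether those mice carried Cre or a floxed allele was not given in the sources used here. The question was whether the RNA level of the proteins that act beside SRSF1 in splicing differed once *Srsf1* was removed. No member passed the test over all genes. Neither did any of the 16206 tested genes, including *Srsf1* itself (limma adjusted p = 0.0578). The study, using DESeq2, did call genes in both directions. Not passing here therefore does not show that a member was unchanged. *Esrp1*, *Elavl2*, *Mbnl3* and *Hnrnpf* were lower and *Rbfox2*, *Hnrnpa1*, *Rbm15* and *Tardbp* higher in all 3 cKO testes than in any Ctrl testis, where 12.8% of all tested genes were lower and 10.3% higher in this way. The other 43 members overlapped between the groups.

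hnRNPs coat nascent RNA and help to decide which exons are kept. Many of them bind silencer elements in exons or introns and oppose SR proteins such as SRSF1, which bind exonic enhancers, although several act in either direction depending on where they bind. Other members (the RBFOX, MBNL, CELF, ESRP and ELAVL proteins) are made in some cell types more than in others and set tissue-specific exon choice. Several genes of these families limit their own output by including or skipping an exon that exposes the transcript to nonsense-mediated decay. The values analysed here are FPKM (fragments scaled to gene length and to library size), 1 value per gene and sample. They measure the amount of RNA of a gene, and hold no information on which exons it contained.

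In the GENCODE M21 annotation the 51 genes had a median of 10 annotated transcripts, against 5 for 13188 protein-coding genes averaging at least 0.5 FPKM. *Hnrnpk* had the most, 34, followed by *Pcbp2* with 31 and *Tardbp* with 30, whereas *Hnrnpa0* and *Pcbp1* had 1 each. A transcript annotated as a target of nonsense-mediated decay was present in 26 members (51%) and in 27.3% of the protein-coding genes. A retained-intron transcript was annotated in 39 members (76.5%), against 56.6%. *Tardbp*, which encodes TDP-43, had 10 decay-annotated transcripts, the largest number among the members. *Rbm39* followed with 8, and *Esrp1*, *Elavl2*, *Mbnl3* and *Rbfox2* had 0.

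Promoter sequences were read from RefSeq (GRCm38.p6), in windows running from 250 bases before the transcript start to 50 bases after it, and 43 of the 51 members were matched by symbol. Entries for *Esrp1*, *Rbfox2*, *Ptbp3*, *Khdrbs1*, *Khdrbs3*, *Hnrnpll*, *Hnrnpul2* and *Matr3* were missing. Some genes have several windows, and the 43 members had 68. These 68 windows held a median of 26.5 CpG dinucleotides, against 20 over 13132 windows of protein-coding genes above the filter and 7 over all 32851 windows. CCAAT, searched on both strands, was found in 32 of the 68 member windows (47.1%), in 37.8% of the windows of protein-coding genes above the filter and in 37.4% of all windows. CACGTG was found in 9 of the 68 (13.2%), against 9.86% and 7.15%. With the window nearest the 5′ end of each member alone, 22 of 43 held CCAAT and 7 held CACGTG. These are matches of letters in a window and not bound sites.

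The 250 upstream bases are printed for 3 members whose levels did not overlap between the groups. They run 5′ to 3′ on the strand of the gene, and capitals mark CpG dinucleotides. *Elavl2* (chr4:91399985-91400234, − strand) is a germ-cell and neuronal gene that was low in these testes. *Mbnl3* (chrX:51205991-51206240, − strand) was the member with the lowest level. *Hnrnpa1* (chr15:103240147-103240396, + strand) was the member with the highest level.
Elavl2: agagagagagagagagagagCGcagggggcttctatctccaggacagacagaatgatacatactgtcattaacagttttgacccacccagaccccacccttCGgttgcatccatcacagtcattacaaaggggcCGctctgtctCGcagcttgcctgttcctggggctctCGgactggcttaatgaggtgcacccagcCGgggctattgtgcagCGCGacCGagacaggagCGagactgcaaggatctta
Mbnl3: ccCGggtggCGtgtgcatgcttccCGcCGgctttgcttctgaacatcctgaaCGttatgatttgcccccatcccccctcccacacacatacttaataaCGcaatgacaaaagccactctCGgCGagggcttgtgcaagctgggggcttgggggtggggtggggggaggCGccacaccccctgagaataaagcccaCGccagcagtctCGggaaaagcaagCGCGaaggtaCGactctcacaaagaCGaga
Hnrnpa1: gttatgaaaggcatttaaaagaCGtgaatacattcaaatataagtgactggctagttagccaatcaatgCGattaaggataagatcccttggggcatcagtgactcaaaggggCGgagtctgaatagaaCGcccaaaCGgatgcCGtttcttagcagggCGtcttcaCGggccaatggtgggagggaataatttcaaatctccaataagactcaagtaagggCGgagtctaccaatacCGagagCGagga
The printed stretch of *Hnrnpa1* held 11 CpG dinucleotides and 4 matches to CCAAT, searched on both strands. That of *Mbnl3* held 15 CpG dinucleotides and that of *Elavl2* held 10, both with 0 matches to CCAAT. The transcript start of the *Hnrnpa1* window lay 35 bases from the 5′ end of the gene in the deposited table. Those of the *Mbnl3* and *Elavl2* windows lay 542 and 801 bases away, so these windows need not be the starts used in testis. *Elavl2* had 6 windows, and the nearest to that end was printed.

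As a check of the labels, the deleted gene was measured in each testis. Values in single testes are given here and below in the order of replicates 1, 2 and 3. The level of *Srsf1* was 82.1, 89.1 and 88.4 FPKM in the Ctrl testes, compared with 45.1, 46.3 and 51.6 FPKM in the cKO testes. All 3 cKO testes were thus below all 3 Ctrl testes, at a mean of 55.1% of Ctrl, with a log2 fold change of −0.85 (SE 0.09, limma adjusted p = 0.0578). How much of this difference came from germ cells and how much from the del allele in somatic cells was not tested. Depth ran from 15448191 reads for cKO 1 up to 18964743 for Ctrl 2. Markers of testis cell types were present, since 19 of 20 germ-cell, 12 of 12 Sertoli-cell and 8 of 9 Leydig-cell genes were above a mean of 0.5 FPKM. The protocol text of the labels names retina as the starting tissue, whereas the tissue field and the titles name testis.

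Germ-cell RNA differed between the groups and among the Ctrl testes. The summed level of the 20 germ-cell markers was 184, 433 and 194 FPKM in the Ctrl testes, compared with 46.5, 90.6 and 57.8 FPKM in the cKO testes. Ctrl 2 therefore stood apart from the other Ctrl testes. Of the 19 markers above the filter, 18 were lower in cKO without overlap, *Utf1* overlapped, and their median log2 fold change was −1.43. In RNA from a whole organ, fewer cells of a type and less RNA per cell cannot be told apart. None of the 20 was at 0 in any sample. Of the somatic markers, the 12 Sertoli-cell genes summed to 2075 to 2942 FPKM in Ctrl and 2634 to 3028 FPKM in cKO, with 4 lower and 2 higher without overlap. The 6 peritubular myoid genes summed to 521 to 533 FPKM in Ctrl and 328 to 511 FPKM in cKO, the 11 macrophage genes to 97.9 to 136 and 117 to 189 FPKM, and the 5 erythroid genes to 438 to 697 and 526 to 1479 FPKM.

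All 51 members were detected above a mean of 0.5 FPKM over the 6 samples, the filter that left 16206 genes for testing. Their mean levels ran from 1.41 FPKM for *Mbnl3* to 362 FPKM for *Hnrnpa1*, with a median of 28.2 FPKM, whereas the median of all tested genes was 5.93 FPKM. A mean of at least 10 FPKM was reached by 43 members. After *Hnrnpa1* the highest were *Hnrnpa2b1* (220 FPKM), *Hnrnpa0* (211 FPKM), the DEAD-box helicase gene *Ddx5* (199.7 FPKM) and *Hnrnpab* (168 FPKM). At the other end, *Elavl2* (1.68 FPKM), *Esrp1* (3.01 FPKM) and *Rbm15* (4.81 FPKM) stood just above *Mbnl3*. The members took between 1.72% and 1.73% of all reads in the Ctrl testes and between 1.76% and 1.78% in the cKO testes, so the summed share was slightly higher in each cKO testis than in each Ctrl testis.

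Comparison of cKO with Ctrl testes gave no member past the threshold. In limma, with adjusted p-values over all 16206 tested genes, 0 members were lower and 0 were higher at an adjusted p of 0.05 or less, as was the case for 0% of all tested genes. The smallest adjusted p of a member was 0.124, that of *Esrp1*. At an unadjusted p under 0.05, 4 of the 51 members were lower in cKO (*Esrp1*, *Elavl2*, *Mbnl3* and *Ptbp3*), where 9.31% of all tested genes were. Likewise 2 members were higher (*Rbfox2* and *Hnrnpa1*), where 6.6% of all tested genes were. These counts are small, and whether they differed from the background was not tested. Without Ctrl 2, 2 members were lower and 1 was higher at an unadjusted p under 0.05. The share of all tested genes was not counted in that setting.

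Counted by overlap, 4 members were lower in every cKO testis than in every Ctrl testis (*Esrp1*, *Elavl2*, *Mbnl3* and *Hnrnpf*), against 12.8% of all tested genes. A further 4 were higher (*Rbfox2*, *Hnrnpa1*, *Rbm15* and *Tardbp*), against 10.3%. The other 43 members overlapped. The members' log2 fold changes had a median of 0.04, beside 0.0027 over all tested genes. Of the members, 31 (60.8%) were above 0 and 20 below, where 50.5% of all tested genes were above 0. In absolute size their median was 0.10, against 0.14 over all tested genes and 0.12 over the protein-coding genes averaging at least 10 FPKM. A log2 fold change within 0.1 of 0 was found for 26 members and one within 0.2 for 40. Of all 16206 tested genes, 6017 were within 0.1 and 10407 within 0.2. Of the 5465 protein-coding genes averaging at least 10 FPKM, 2277 and 3874 were.

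How far a difference can be bounded follows from the spread between replicates. The 95% confidence interval of the log2 fold change lay within 0.5 of 0 for 42 of the 51 members, with a median SE of 0.10. The 9 members whose interval reached further were *Esrp1*, *Elavl2*, *Mbnl3*, *Rbfox2*, *Hnrnpa0*, *Hnrnpa3*, *Hnrnpd*, *Pcbp1* and *Ddx17*. These intervals are not adjusted for the number of genes. That of *Esrp1* lay wholly beyond the bound, and those of *Elavl2*, *Mbnl3* and *Rbfox2* crossed the bound but did not include 0. The intervals of *Hnrnpa0*, *Hnrnpa3*, *Hnrnpd*, *Pcbp1* and *Ddx17* included 0. For these, 3 samples per group leave room for a difference beyond that bound. The interval of *Esrp1* ran from −2.08 to −0.66 and that of *Rbfox2* from 0.20 to 0.63.

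**Figure D1:**
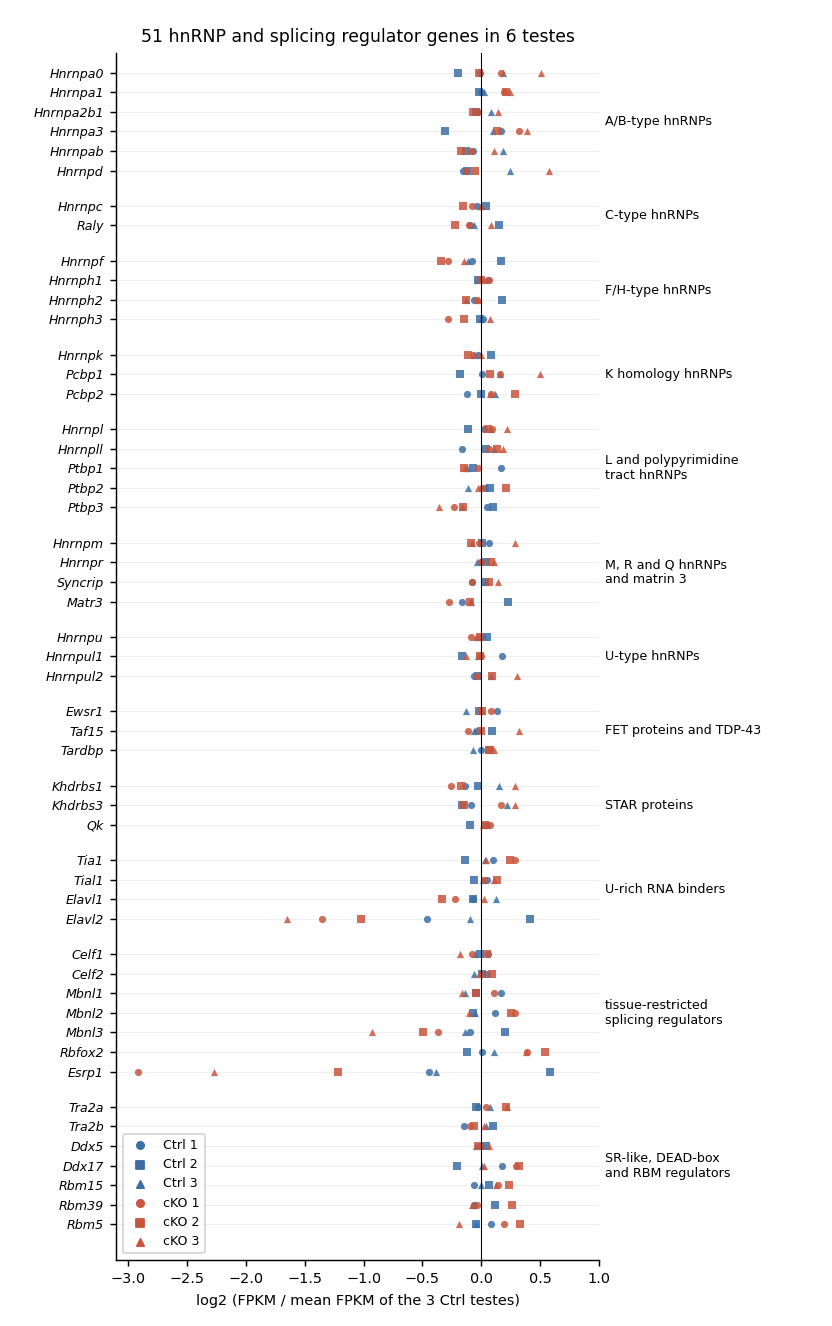
FPKM of each of the 51 members in 6 testes, as the log2 ratio to the mean of the 3 Ctrl testes (x axis), with members grouped by class (y axis); blue points are Ctrl, red points cKO, and the symbol gives the replicate. Most members lie close to 0 in both groups, while *Esrp1*, *Elavl2* and *Mbnl3* lie to the left in all 3 cKO testes and *Rbfox2* to the right.

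The 7 tissue-restricted regulators included the members with the most negative and the most positive log2 fold change. *Esrp1* encodes an epithelial splicing regulator and lies on chromosome 4 (ENSMUSG00000040728, 11331933 to 11386783, − strand, GRCm38). It was at 3.52, 7.197 and 3.68 FPKM in the Ctrl testes, compared with 0.635, 2.06 and 0.996 FPKM in the cKO testes. The groups did not overlap, and the cKO mean of 1.23 ± 0.741 FPKM was 25.6% of the Ctrl mean of 4.799 ± 2.08 FPKM (SD, n = 3 each). In limma the log2 fold change of *Esrp1* was −1.37 (SE 0.30, unadjusted p = 0.00243, adjusted p = 0.124). The values rested on 63 to 864 reads per sample.

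The Ctrl testes themselves differed in *Esrp1* by more than in any other member. Ctrl 2 was at 2.0 times the mean of the other 2 Ctrl testes, and the coefficient of variation among the Ctrl testes was 43.3%. Without Ctrl 2 the log2 fold change was −1.09 and the adjusted p in limma was 0.236.

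*Rbfox2* encodes an RNA-binding protein that recognises GCATG and regulates exons in muscle, brain and epithelia. Its gene lies on chromosome 15 (ENSMUSG00000033565, 77078990 to 77307004, − strand). It was at 16.4, 14.96 and 17.6 FPKM in the Ctrl testes, compared with 21.3, 23.7 and 21.2 FPKM in the cKO testes. All cKO values were above all Ctrl values, at a mean of 22.1 ± 1.40 FPKM against 16.3 ± 1.31 FPKM (SD, n = 3 each), or 135% of Ctrl. The log2 fold change of 0.42 (SE 0.09) was the highest of the 51 members, with an adjusted p of 0.124 in limma. In the same testes the summed Leydig-cell markers were at 456 to 651 FPKM in Ctrl and 686 to 777 FPKM in cKO, with 3 of 9 genes higher without overlap and *Hsd3b6* at or near 0 in all 6 testes. The 7 endothelial markers summed to 48.9 to 59.5 FPKM and 63.5 to 70.3 FPKM, with 2 higher without overlap. Their part in the *Rbfox2* result was not tested.

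The muscleblind genes encode zinc-finger proteins that act on fetal and adult exon choice. *Mbnl3* (ENSMUSG00000036109, − strand of chromosome X, 51117269 to 51206532) had 1.58, 1.95 and 1.54 FPKM in the Ctrl testes, compared with 1.31, 1.198 and 0.888 FPKM in the cKO testes. The groups did not overlap, and the cKO mean of 1.13 ± 0.218 FPKM was 67.0% of the Ctrl mean of 1.69 ± 0.224 FPKM (SD, n = 3 each). The log2 fold change was −0.34 (SE 0.13, limma adjusted p = 0.290), on a scale, log2(FPKM + 1), that understates differences at such low levels. With a pseudocount of 0.1 it was −0.55. *Mbnl1* and *Mbnl2* overlapped between the groups, at log2 fold changes of −0.02 and 0.13. The CELF genes, whose products bind GU-rich RNA, also overlapped, *Celf1* at −0.07 and *Celf2* at 0.02.

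**Figure D2:**
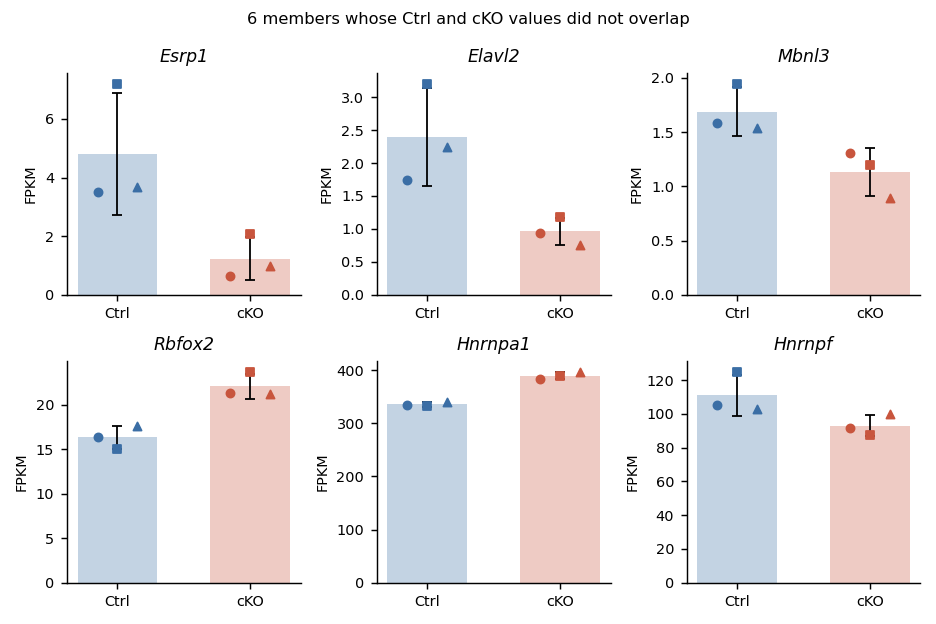
FPKM (y axis, from 0) of 6 members in Ctrl and cKO testes; bars are means of 3 samples, error bars the SD, and points single testes with the symbol giving the replicate. The cKO points lie below all Ctrl points for *Esrp1*, *Elavl2*, *Mbnl3* and *Hnrnpf* and above them for *Rbfox2* and *Hnrnpa1*.

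Among the proteins that bind U-rich RNA, *Elavl2* had the widest difference. It encodes a protein of the Hu family that binds AU-rich elements and is made in neurons and germ cells. The gene (ENSMUSG00000008489) spans 91250763 to 91400785 on the − strand of chromosome 4. Its level was 1.75, 3.20 and 2.25 FPKM in the Ctrl testes, compared with 0.940, 1.18 and 0.763 FPKM in the cKO testes. The groups did not overlap, and the cKO mean of 0.962 ± 0.210 FPKM was 40.1% of the Ctrl mean of 2.40 ± 0.740 FPKM (SD, n = 3 each). The log2 fold change was −0.78 (SE 0.18, limma adjusted p = 0.137). It rested on 98 to 507 reads per sample, and Ctrl 2 was at 1.60 times the mean of Ctrl 1 and 3. Without Ctrl 2 the log2 fold change was −0.61, and in limma voom on recovered reads it was −1.30 (adjusted p = 0.0543). Its broadly expressed relative *Elavl1*, which encodes HuR, was at 10.7, 10.7 and 12.2 FPKM in the Ctrl testes, compared with 9.61, 8.87 and 11.4 FPKM in the cKO testes, and the groups overlapped.

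*Tial1* (ENSMUSG00000030846, chromosome 7) encodes TIAR, a U-rich binder that helps to recognise weak 5′ splice sites, and the study followed its splicing. It was at 18.03, 16.7 and 17.6 FPKM in the Ctrl testes, compared with 17.7, 19.1 and 18.8 FPKM in the cKO testes. The groups overlapped, and the 95% interval of its log2 fold change ran from −0.10 to 0.26. The study reported the RNA level of *Tial1* as unchanged, while its western blotting gave lower levels of a TIAR protein isoform in cKO. GENCODE lists 14 transcripts of *Tial1*, of which 4 are annotated as decay targets and 4 as retained introns, and these cannot be told apart in a value per gene. *Tia1*, its closest relative, was at a log2 fold change of 0.18 and overlapped.

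The A/B-type hnRNPs, abundant proteins with paired RNA-recognition motifs and a glycine-rich tail, include the best-known antagonists of SRSF1 at exonic silencers. Of the 6 genes, 5 had a log2 fold change above 0, with a class median of 0.18. Over all tested genes 50.5% were above 0. Among the other classes, 6 of 7 SR-like, DEAD-box and RBM genes were above 0, and 1 of 4 F/H-type genes. *Hnrnpa1* (ENSMUSG00000046434, + strand of chromosome 15, 103240432 to 103246692) had 335, 332 and 340.1 FPKM in the Ctrl testes, compared with 383, 388 and 397 FPKM in the cKO testes. The groups were narrow and did not overlap, with a cKO mean of 389.5 ± 6.83 FPKM against 335 ± 4.32 FPKM (SD, n = 3 each), or 116% of Ctrl. Its log2 fold change was 0.22 (SE 0.09), and limma gave an unadjusted p of 0.0430 and an adjusted p of 0.302. With quantile normalization the log2 fold change was 0.14.

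The other A/B-type genes overlapped. *Hnrnpa3* was at 21.3, 15.3 and 20.3 FPKM in the Ctrl testes, compared with 23.7, 20.8 and 24.8 FPKM in the cKO testes. Its Ctrl 2 value was the lowest relative to the other Ctrl testes of any member, at 0.737 times their mean. *Hnrnpa0* had a log2 fold change of 0.23 and *Hnrnpd*, which encodes the AU-rich element binder AUF1, had 0.14. In both, cKO 3 was far above the other cKO testes, at 275 FPKM for *Hnrnpa0* against 217 and 191, and at 39.6 FPKM for *Hnrnpd* against 24.3 and 25.6. *Hnrnpa2b1* and *Hnrnpab* were within 0.1 of 0.

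A large share of *Hnrnpa1* sequence also occurs in copies elsewhere in the genome. Of its 50-base stretches, 28.2% were found in other annotated genes, nearly all of them in the processed pseudogene *Gm10052*. *Gm10052* was itself listed at 60.7, 66.0 and 69.3 FPKM in the Ctrl testes, compared with 69.4, 76.8 and 75.4 FPKM in the cKO testes, so reads may have been shared between the gene and its copy. Its stretches were shared by 20 annotated genes. Summed over *Hnrnpa1* and the 19 of them found by identifier in the deposited table, scaled reads in cKO were 116% of Ctrl, still without overlap.

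The C-type genes *Hnrnpc* and *Raly*, whose products bind U-rich tracts, had log2 fold changes of −0.08 each and overlapped. Of the F/H-type genes, whose products bind G-rich runs through quasi-RNA-recognition motifs, *Hnrnpf* stood out. *Hnrnpf* (ENSMUSG00000042079, + strand of chromosome 6, 117900324 to 117925622) had 105, 125 and 103 FPKM in the Ctrl testes, compared with 91.5, 87.7 and 100.1 FPKM in the cKO testes. The highest cKO value lay just under the lowest Ctrl value, and the cKO mean of 93.1 ± 6.36 FPKM was 83.8% of the Ctrl mean of 111 ± 12.1 FPKM (SD, n = 3 each). The log2 fold change was −0.25 (SE 0.11, limma adjusted p = 0.315), and without Ctrl 2 it was −0.16. Copies hold 43.2% of its 50-base stretches, the largest share among the members, and with 8 of the 9 genes that share them, those found by identifier in the deposited table, the scaled reads in cKO were 84.0% of Ctrl. *Hnrnph1*, *Hnrnph2* and *Hnrnph3* overlapped, at 0.03, −0.06 and −0.11.

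The K homology genes bind C-rich RNA. *Hnrnpk* was at 139, 149.9 and 136 FPKM in the Ctrl testes, compared with 135, 131 and 141 FPKM in the cKO testes, with overlap. *Pcbp1*, an intronless gene, had a log2 fold change of 0.25 and *Pcbp2* of 0.15. The widest value in this class was *Pcbp1* in cKO 3, at 211 FPKM against 167 and 158 in cKO 1 and 2, the same testis in which *Hnrnpa0* and *Hnrnpd* were highest.

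The polypyrimidine tract proteins repress exons flanked by CU-rich sequence, and the paralogues replace each other during differentiation. *Ptbp3* (chromosome 4) was at 26.4, 27.3 and 22.8 FPKM in the Ctrl testes, compared with 21.7, 22.8 and 19.9 FPKM in the cKO testes. Its Ctrl 3 and cKO 2 values met, so the groups overlapped although the unadjusted p was 0.0470 (log2 fold change −0.23, SE 0.10, limma adjusted p = 0.309). *Ptbp1* was at −0.10 and *Ptbp2*, the form enriched in neurons and testis, at 0.06. *Hnrnpl* and *Hnrnpll*, which bind CA-rich RNA, were both at 0.12. *Hnrnpm*, *Hnrnpr*, *Syncrip* (hnRNP Q) and *Matr3* (matrin 3) all overlapped, between −0.14 for *Matr3* and 0.06 for *Hnrnpm*.

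The U-type genes encode scaffold proteins that bind chromatin and RNA. *Hnrnpu* and *Hnrnpul1* were at −0.04 each and *Hnrnpul2* at 0.12. *Hnrnpu* was among the steadier members, at 79.0 to 86.4 FPKM over the 6 testes. The FET-family genes *Ewsr1* and *Taf15* were at 0.04 and 0.07. *Tardbp*, whose protein represses cryptic exons, was at 49.97, 52.5 and 47.6 FPKM in the Ctrl testes, compared with 52.5, 52.8 and 54.1 FPKM in the cKO testes. Its groups met without overlapping, since Ctrl 2 and cKO 1 were nearly equal, and the log2 fold change was 0.09 (SE 0.08, limma adjusted p = 0.610), or 0.05 without Ctrl 3. The STAR genes *Khdrbs1* (SAM68), *Khdrbs3* and *Qk* overlapped, between −0.04 and 0.10. SAM68 is needed for male fertility, and *Khdrbs1* was at 28.03, 30.3 and 34.4 FPKM in the Ctrl testes, compared with 25.9, 27.4 and 37.8 FPKM in the cKO testes.

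In the last class, *Ddx5* (ENSMUSG00000020719, chromosome 11) encodes the helicase p68, which was among the genes the study followed. It was at 199, 205 and 193 FPKM in the Ctrl testes, compared with 197, 196 and 208 FPKM in the cKO testes. The groups overlapped, and the 95% interval of the log2 fold change ran from −0.19 to 0.21. Its paralogue *Ddx17* was at a log2 fold change of 0.22, with wide values in both groups. *Rbm15* (ENSMUSG00000048109, chromosome 3, 107325421 to 107333673, − strand) encodes a partner of SRSF1 named by the study and a part of the RNA methylation machinery. It was at 4.33, 4.75 and 4.52 FPKM in the Ctrl testes, compared with 5.00, 5.32 and 4.94 FPKM in the cKO testes. All cKO values were above all Ctrl values by a small margin, with a log2 fold change of 0.14 (SE 0.09, limma adjusted p = 0.471). The SR-like activators *Tra2a* and *Tra2b* were at 0.15 and −0.04, and *Rbm39* and *Rbm5* at 0.05 and 0.10, all with overlap.

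**Figure D3:**
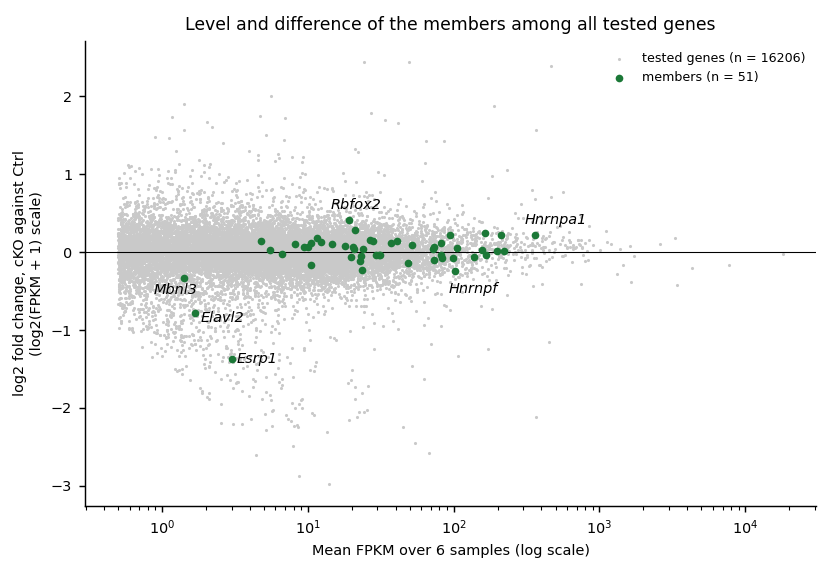
Log2 fold change of cKO against Ctrl on the log2(FPKM + 1) scale (y axis) by mean FPKM over 6 samples on a log scale (x axis), for 16206 tested genes (grey) and the 51 members (green). The 43 members at 10 FPKM or more lie between −0.25 and 0.42, and *Esrp1*, *Elavl2* and *Mbnl3*, the 3 members of lowest level, lie below 0.

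Relatives within a family were compared as ratios inside each testis, in which most of any scaling between libraries cancels. For 12 pairs the log2 ratio of FPKM + 1 was compared by an exact two-sided permutation test, in which 3 against 3 samples cannot give a p below 0.1. The *Elavl2*/*Elavl1* ratio was −2.09, −1.48 and −2.03 in the Ctrl testes, compared with −2.45, −2.18 and −2.81 in the cKO testes. It was lower in each cKO testis, by a mean of 0.62 (exact permutation p = 0.1, adjusted p = 0.3 over 12 pairs). The *Mbnl3*/*Mbnl1* ratio differed by −0.31, *Tra2a*/*Tra2b* by 0.19 and *Celf2*/*Celf1* by 0.09, each without overlap and each with the same exact permutation p of 0.1 (adjusted p = 0.3). These sizes moved with the setting. With a pseudocount of 0.1 the difference was −1.04 for *Elavl2*/*Elavl1* and −0.52 for *Mbnl3*/*Mbnl1*. It was 0.12 for *Tra2a*/*Tra2b* without Ctrl 2 and 0.05 for *Celf2*/*Celf1* without cKO 3. The other 8 pairs overlapped, with exact permutation p from 0.2 to 1. Thus 4 of 12 ratios parted the groups and none could pass the threshold with this number of samples. Of all single tested genes, 12.8% were lower and 10.3% higher without overlap. *Elavl2* and *Mbnl3* also parted the groups on their own.

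**Figure D4:**
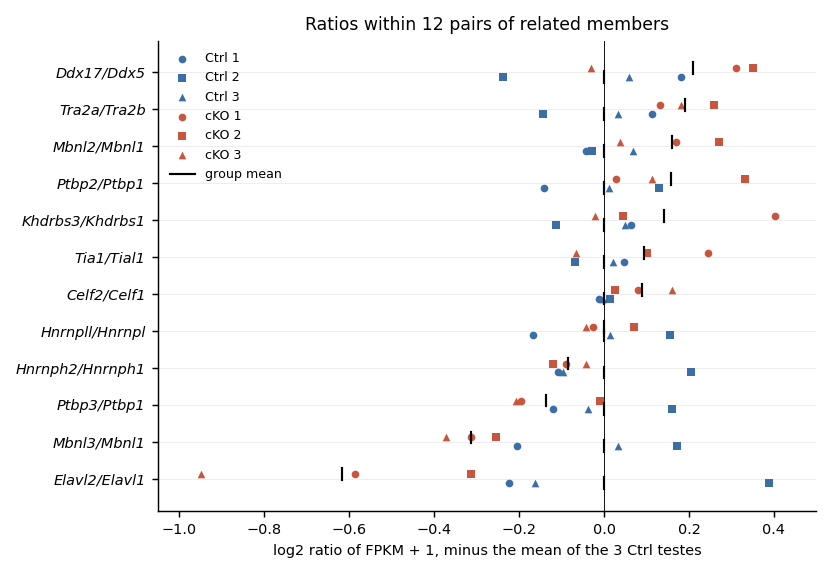
Log2 ratio of FPKM + 1 within 12 pairs of related members in each testis, minus the mean of the 3 Ctrl testes (x axis); blue points are Ctrl, red points cKO, symbols give the replicate and black ticks the group means. *Elavl2*/*Elavl1* and *Mbnl3*/*Mbnl1* lie to the left in all 3 cKO testes, and *Celf2*/*Celf1* and *Tra2a*/*Tra2b* to the right.

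The members that were lower in cKO were set beside the germ-cell markers of the same testes. With each marker expressed as a percentage of its Ctrl mean, the 19 markers averaged 73.4%, 159.7% and 66.9% in the Ctrl testes, compared with 26.6%, 41.8% and 29.9% in the cKO testes. The 3 members of lowest level were also higher in Ctrl 2, the testis with the highest germ-cell markers, by 2.0 times for *Esrp1*, 1.60 times for *Elavl2* and 1.25 times for *Mbnl3* relative to Ctrl 1 and 3. *Matr3* was 1.28 times and *Hnrnpf* 1.2 times higher in Ctrl 2, whereas *Rbfox2* was at 0.881 times. The part of germ-cell RNA content in these differences was not tested.

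**Figure D5:**
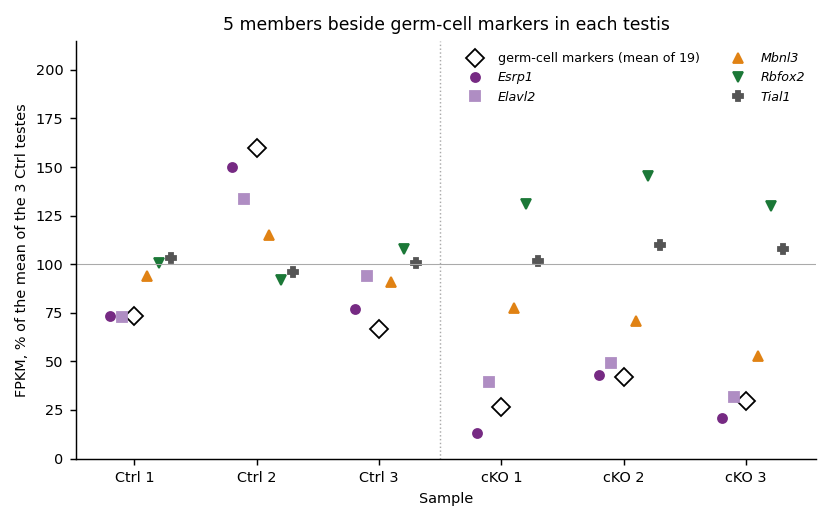
FPKM as a percentage of the mean of the 3 Ctrl testes (y axis) in each of 6 testes (x axis) for the mean of 19 germ-cell markers (open diamonds) and for 5 members. *Esrp1* and *Elavl2* are, like the markers, highest in Ctrl 2 and lower in the 3 cKO testes than in any Ctrl testis, *Mbnl3* varies less, *Rbfox2* lies above 100% in the cKO testes and *Tial1* stays near 100%.

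Protein-coding genes outside the members that averaged at least 1 FPKM were ranked by how closely their log2(FPKM + 1) followed *Esrp1* over the 6 testes. The 5 closest were *Tdrd12*, *Sycp1*, *Slc25a31*, *Rpl10l* and *Ddx4*, with Pearson's r from 0.996 to 0.998. All values come from the same 6 libraries, which fall into 2 groups, and the coefficients are given as a description. *Ddx4* is one of the germ-cell markers, and was at 26.3, 65.1 and 29.9 FPKM in the Ctrl testes, compared with 8.01, 15.8 and 9.43 FPKM in the cKO testes.

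A further list of 62 splicing regulators outside the members was compared in the same way, and 50 of them were above the filter. In limma, 0 were lower and 0 higher at an adjusted p of 0.05 or less, and 3 were lower and 4 higher at an unadjusted p under 0.05. Of all tested genes, 9.31% were lower and 6.6% higher at that unadjusted p. Of the 50, 6 were lower and 5 higher without overlap, where 12.8% and 10.3% of all tested genes were. The median log2 fold change of the 50 was 0.02, beside 0.04 for the members. *Rbmx*, the X-linked relative of the Y-chromosome *Rbmy* genes and itself an hnRNP gene (hnRNP G), was at 32.0, 28.03 and 32.1 FPKM in the Ctrl testes, compared with 44.3, 41.4 and 39.5 FPKM in the cKO testes. The groups did not overlap, and its log2 fold change of 0.43 (SE 0.09, limma adjusted p = 0.113) was close to that of *Rbfox2*. The germ-cell gene *Rbm46* was at 7.37, 18.5 and 8.56 FPKM in the Ctrl testes, compared with 3.03, 3.38 and 5.78 FPKM in the cKO testes, again highest in Ctrl 2 (log2 fold change −1.23, SE 0.34, limma adjusted p = 0.174). Without overlap, *Rbm3* and *Luc7l2* were at 0.24 each, *Puf60* at −0.25 and *Rbm38* at −0.57, with adjusted p-values in limma from 0.213 to 0.237. Without Ctrl 2 the log2 fold change of *Rbm38* was −0.36. The fourth gene higher at an unadjusted p under 0.05 was *Rbm47*, named here after its values were seen since it averaged under 1 FPKM. It was at 0.423, 0.389 and 0.421 FPKM in the Ctrl testes, compared with 0.816, 0.945 and 0.777 FPKM in the cKO testes, without overlap (206% of Ctrl, log2 fold change 0.39, limma adjusted p = 0.220), and with a pseudocount of 0.1 the log2 fold change was 0.89.

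Beyond *Hnrnpa1* and *Hnrnpf*, copies elsewhere hold 26.9% of the 50-base stretches of *Hnrnpa3*, 15.9% of *Hnrnph2*, 14.5% of *Hnrnpk*, 13.4% of *Ddx5* and 12.0% of *Ewsr1*, so the split of reads between these genes and their copies is uncertain. Scaled reads of *Hnrnpa3* in cKO were 122% of Ctrl alone and 108% summed with the genes that share its stretches. That sum covered 45 genes and in Ctrl 1 held 6878 reads. Of these, 1858 were of *Hnrnpa3* and 358 of *Gm5641*, the copy sharing the most stretches. Most of the sum thus came from other genes, and the 108% is not a value of *Hnrnpa3* alone. Sums with the sharing genes gave 95.5% for *Hnrnph2*, 94.6% for *Hnrnpk*, 100.6% for *Ddx5* and 102.4% for *Ewsr1*. Alone these were at 95.7%, 95.8%, 100.7% and 102.3%. *Gm7964*, the copy of *Hnrnpk*, was listed at 71.6 to 79.6 FPKM in cKO and 85.3 to 97.7 FPKM in Ctrl, lower without overlap, while *Hnrnpk* itself overlapped. For *Esrp1*, *Elavl2*, *Rbfox2* and *Tial1* the share was 0%, and for *Mbnl3* it was 0.146%. Exons of a gene on the opposite strand cover 30.2% of the exonic bases of *Pcbp2* (*Map3k12*), 29.1% of *Hnrnpab* (*Phykpl*), 23.3% of *Tardbp* (*Masp2*) and 13.5% of *Hnrnpf* (*4933440N22Rik*). In the same order these partners averaged 2.09, 2.24, 0.180 and 1.38 FPKM, and the members 40.7, 168, 51.6 and 102 FPKM. Whether the counting used strand was not given in the sources used here, so reads of these partners cannot be told apart. Exons of a gene on the same strand cover 14.7% of the exonic bases of *Hnrnpm* and 17.3% of *Matr3* in GENCODE. There these 2 genes had 7956 and 10158 exonic bases, against deposited gene lengths of 4701 and 9869. The 2 shares need not hold for the deposited values.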

How the data were processed

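Polyadenylated RNA of 3 Ctrl and 3 cKO testes at 5 dpp was sequenced. Per the study's methods, the authors made paired-end libraries, aligned the reads to mm10 with HISAT2 (version 2.0.5, per the labels' processing notes), counted them per gene with featureCounts and deposited FPKM values for 54532 genes with gene length and coordinates. Groups and replicate numbers were taken from the sample titles. The study describes biological replicates. The labels do not name the animals, so p-values measure the spread between these samples only.

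From the deposited FPKM, log2(FPKM + 1) was fitted with limma 3.58.1 (R 4.3.3) for the 16206 genes averaging 0.5 FPKM or more over the 6 samples, with 2 groups, no covariate, empirical Bayes moderation with a trend, two-sided p-values and Benjamini-Hochberg adjustment over all tested genes at 0.05. FPKM multiplied by gene length came out as whole multiples of a single step for 100% of values (within 0.01), so reads were recovered. They summed to between 15448191 and 18964743 per sample and were used for limma voom as an alternative. For a 1 kb gene, 3 reads correspond to 0.158 to 0.194 FPKM, a floor that covers counting error only. The fit was tested on simulated data.

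The members, the list of other splicing regulators and the marker lists were chosen with earlier results of these data known. Values in every sample are given for *Srsf1*, for *Tial1*, *Ddx5* and *Rbm15*, which the study followed, for members whose groups did not overlap, for the members of highest and lowest level, and for the leading other regulators. Values given for further members were chosen after they were seen. Annotation came from GENCODE M21, and 50-base stretches were compared among its transcripts. Gene start, end and strand were as deposited for 49 of the 51 members, although among these the exon length of *Hnrnpm* differed. Promoters came from RefSeq (GRCm38.p6). Alternatives were another pseudocount (0.1), a filter at a mean of 1 FPKM or none, TPM, quantile normalization, undone library scaling, no trend, the replicate block, protein-coding genes only, voom, and leaving out each replicate. Figures were drawn with matplotlib 3.10.9.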

Additional observations from a re-analysis of the deposited data

How the results depend on the processing

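No member passed an adjusted p of 0.05 in the planned limma test, and 15 of the 16 alternatives gave 0 lower and all 16 gave 0 higher. The exception was the replicate block, which put 1 member past it, *Esrp1* (log2 fold change −1.37, adjusted p 0.029). With the block, 5 members were higher at an unadjusted p under 0.05, against 2 in the planned test. The share of all tested genes at that p was not counted with the block. *Srsf1* was at −0.85 with the block (adjusted p 0.0326). Deviations from the group mean correlated between same-numbered samples at 0.0663, 0.0162 and 0.0882 across genes. These low values cannot decide whether same-numbered samples shared a litter or a batch. Each Ctrl sample correlated best with its own number, whereas cKO 2 correlated best with Ctrl 1 (0.0406). Over all genes the block gave 84 lower and 14 higher, protein-coding genes only 176 and 37, voom 61 and 22, TPM 1 and 5, and no trend 0 and 1, against 0 and 0 in the planned test (1508 and 1069 at an unadjusted p under 0.05). Without Ctrl 2 there were 15 and 3, and without Ctrl 3 there were 3 and 5.

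At an unadjusted p under 0.05, 1 member was higher with no filter, with quantile normalization and with protein-coding genes only. The share of all tested genes at this p was counted in the planned test alone, so member counts under the alternatives have no background. Leaving out each replicate gave 2 to 5 lower members and 1 to 5 higher members, with 2 lower without Ctrl 1 or Ctrl 2 and 5 higher without cKO 3. It moved the members' median log2 fold change from 0.0193 without cKO 3 to 0.0608 without cKO 1. *Srsf1* passed the threshold with TPM (−0.86, adjusted p 0.0336), with protein-coding genes only (−0.85, 0.0160) and with voom (−0.86, 0.0255). Of the values near 0, *Ddx5* was at −0.0034 with quantile normalization and between −0.018 and 0.031 when each replicate was left out. The *Hnrnpll*/*Hnrnpl* ratio, at −7.1e-05, was at 0.0092 with a pseudocount of 0.1 and between −0.084 and 0.077 without each replicate, and *Hnrnph2*/*Hnrnph1* between −0.14 and 0.018. The cause was not tested. Over the alternatives *Esrp1* ran from −2.05 to −1.09 (adjusted p 0.029 to 0.341), *Rbfox2* from 0.36 to 0.47 (0.071 to 0.331), *Elavl2* from −1.30 to −0.61 (0.0543 to 0.351), *Mbnl3* from −0.59 to −0.25, *Hnrnpa1* from 0.14 to 0.23 and *Hnrnpf* from −0.30 to −0.16. The sign was the same in every alternative for 34 of the 51 members. No scaling moved the median log2 fold change of all tested genes beyond 0.021.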
